A study of Mus musculus with 8 samples.

Results

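In mouse embryonic fibroblasts (MEFs), 12871 broad peaks of H3K36me3 on chromosomes 1 to 19 were at least 3000 bases long, and 1368 of them (10.6%, 95% Wilson interval 10.1 to 11.2) had at least 90% of their bases inside peaks of the library made after OSKM induction. These 1368 regions are called kept domains here. They were chosen by the MEF and OSKM peaks themselves, so the values of those 2 libraries describe the choice and carry no test. The libraries MEF B12 and OSKM B12 took no part in it. The kept domains held 14.7% of the bases of all large MEF peaks, and all 64885 MEF peaks on these chromosomes were the list from which the large ones were taken.

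The cells were i4F MEFs from an embryo at E13.5, which the labels call Clone 1, so every library comes from the cells of 1 embryo. These cells carry a doxycycline-inducible cassette for Oct4, Sox2, Klf4 and cMyc (OSKM), and the uninduced cells carry it too. All cells were moved to iPSC medium for 72 h: MEF received no addition, MEF B12 received 2 µM vitamin B12, OSKM received doxycycline (1 µg/ml in the labels, but 1 mg/ml in the methods for cultured cells), and OSKM B12 received both. Each condition has 1 H3K36me3 library and 1 input library, so differences between conditions could not be set against replicate spread, and p-values are not given. The H3K36me3 libraries held between 29046913 and 33399267 tags and the inputs between 34524486 and 36150875. The antibody is written as H3K3me3 in the extraction protocol and as H3K36m3 in the sample labels. What follows rests on the lists of peaks, and counting intervals do not cover variation between cultures or immunoprecipitations.

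H3K36me3 is the trimethyl mark that SETD2 places on histone H3 while it travels with elongating RNA polymerase II. It lies over the bodies of transcribed genes, is low at promoters and usually rises toward the 3′ end. In the wake of the polymerase, it recruits deacetylases and other factors that keep transcription from starting inside genes.

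To show the DNA that carries these domains, the internal coding exon nearest the centre of each of the 6 longest kept domains is printed 5′ to 3′ on the strand of the gene, from GRCm38 (mm10). Capitals mark the exon and lower case the 20 bases of intron on each side. Exons are counted in the longest protein-coding transcript of the gene in GENCODE M21.
Ubr4 exon 3 of 28, chr4:139450295-139450562, plus strand: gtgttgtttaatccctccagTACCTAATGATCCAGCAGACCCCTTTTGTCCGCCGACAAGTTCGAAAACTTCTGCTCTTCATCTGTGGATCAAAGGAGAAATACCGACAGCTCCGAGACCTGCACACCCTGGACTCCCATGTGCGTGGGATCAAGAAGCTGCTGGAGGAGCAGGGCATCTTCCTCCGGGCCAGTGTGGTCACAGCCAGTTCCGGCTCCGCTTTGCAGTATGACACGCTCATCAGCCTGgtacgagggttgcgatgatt
Col5a1 exon 32 of 66, chr2:27991974-27992067, plus strand: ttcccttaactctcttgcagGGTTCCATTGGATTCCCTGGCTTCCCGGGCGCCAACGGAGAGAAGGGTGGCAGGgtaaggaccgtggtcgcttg
Rnf213 exon 29 of 67, chr11:119445610-119445786, plus strand: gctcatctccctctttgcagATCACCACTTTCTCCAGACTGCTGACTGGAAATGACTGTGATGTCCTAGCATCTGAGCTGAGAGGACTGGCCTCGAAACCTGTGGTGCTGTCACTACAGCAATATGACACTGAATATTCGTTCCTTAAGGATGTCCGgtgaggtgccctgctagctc
Trrap exon 41 of 71, chr5:144818172-144818340, plus strand: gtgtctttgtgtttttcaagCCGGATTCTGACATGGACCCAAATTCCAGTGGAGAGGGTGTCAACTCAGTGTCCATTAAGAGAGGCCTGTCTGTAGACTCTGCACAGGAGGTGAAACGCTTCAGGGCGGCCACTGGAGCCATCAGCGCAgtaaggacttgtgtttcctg
Fn1 exon 23 of 44, chr1:71618559-71618685, minus strand: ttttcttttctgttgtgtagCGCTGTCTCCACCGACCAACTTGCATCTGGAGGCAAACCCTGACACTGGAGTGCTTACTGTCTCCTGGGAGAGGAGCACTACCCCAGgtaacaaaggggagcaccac
Dync1h1 exon 40 of 77, chr12:110641082-110641243, plus strand: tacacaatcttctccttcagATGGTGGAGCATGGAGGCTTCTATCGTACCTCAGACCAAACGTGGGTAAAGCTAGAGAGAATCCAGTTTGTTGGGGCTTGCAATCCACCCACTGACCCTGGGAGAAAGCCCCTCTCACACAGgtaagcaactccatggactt
Each of these 6 exons lay wholly inside an OSKM peak, and each was bounded by AG in the intron before it and GT in the intron after it.

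The share of a large MEF peak that lay inside OSKM peaks ran without a break from 0 to 100%, so the kept domains are the upper end of a continuous range rather than a separate class. The most filled 5-point step of the range was 80 to 85%, with 1196 peaks. Between 90 and 95% there were 832 peaks, and from 95 to 100% there were 536. Just inside the limit lay domains in Rbm6 (90.01% of 13236 bases), Mmp2 (90.02% of 15556 bases) and Mtor (90.02% of 41646 bases), which encode an RNA-binding splicing regulator, a matrix metalloprotease and the mTOR kinase. Just outside it lay domains in Hnrnpdl (5254 of 5838 bases), Rnf123 (89.99% of 11192 bases) and Extl3 (89.99% of 8638 bases), so a few bases set these 6 apart.

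**Figure D1:**
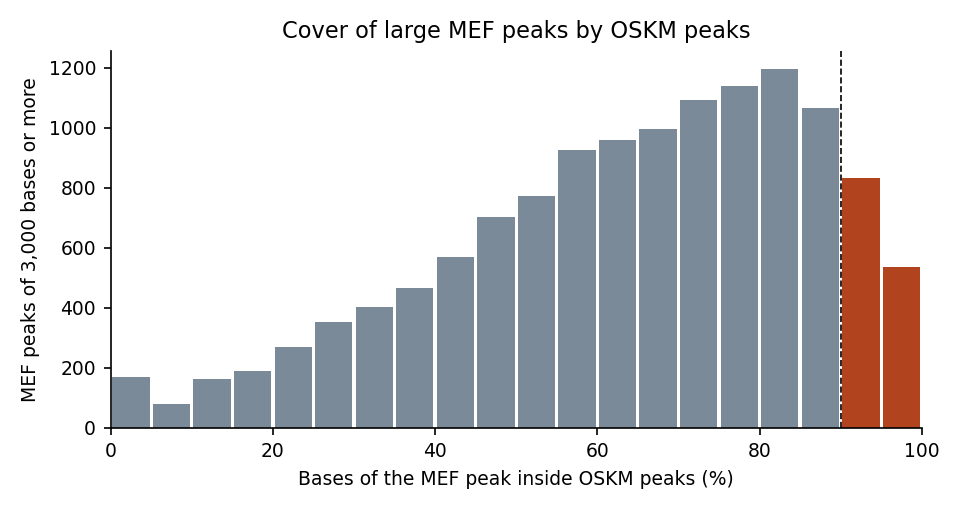
Number of MEF peaks of at least 3000 bases (vertical axis) by the percentage of their bases inside OSKM peaks (horizontal axis, steps of 5 points). The dashed line marks 90%, and the 1368 kept domains are drawn to its right in red. The counts rise to 1196 at 80 to 85% and then fall, with no gap at the limit.

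Kept whole did not always mean kept in 1 piece. In OSKM, 746 domains (54.5%) were touched by 1 peak, 394 (28.8%) by 2, 131 (9.58%) by 3, 49 (3.58%) by 4 and 48 (3.51%) by 5 or more. Of all kept domains, 97 (7.09%) lay inside OSKM peaks to the last base. The 1041 gaps between OSKM peaks inside kept domains had a median of 389 bases and ranged from 301 to 1330. The missing bases were 5.83% of the total, and in domains of coding genes they lay inside the domain (54.5%), at its 5′ end (22.1%) and at its 3′ end (23.4%). In the other 11503 large MEF peaks, 34.3% of the bases were missing from OSKM peaks, and they were shared out almost alike, with 55.3% inside, 21.9% at the 5′ end and 22.7% at the 3′ end. In the libraries that did not choose the members, the place differed: 27.7% of the bases missing from MEF B12 peaks lay inside kept domains rather than at their ends, against 54.7% in the others, and in OSKM B12 the values were 30.8% and 55.9%.

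In the libraries that did not choose them, the kept domains were also covered more fully than the other large MEF peaks. Kept domains were stronger in MEF, as given below, and cover was not compared at like MEF strength. MEF B12 peaks covered at least 90% of the bases in 1334 of 1368 kept domains (97.5%, 96.5 to 98.2), beside 79.4% of all large MEF peaks and 77.3% of those not kept. OSKM B12 peaks did so in 1356 kept domains (99.1%, 98.5 to 99.5), beside 77.4% of all large MEF peaks and 74.8% of those not kept. With vitamin B12 in the OSKM cells, 1286 kept domains (94.0%) were touched by 1 peak, where 746 (54.5%) were in OSKM. Of the other large peaks, 64.65% were in OSKM B12 and 18.5% in OSKM. The bases missing from kept domains fell from 5.83% in OSKM to 0.8595% in OSKM B12, and MEF B12 lacked 1.11%. In the other large peaks they fell from 34.3% to 5.21%, and MEF B12 lacked 4.765%. The OSKM B12 peaks ran past the MEF edge on the 5′ side in 79.7% of kept domains in coding genes and on the 3′ side in 76.2%. OSKM did so in 42.2% and 39.5% and MEF B12 in 75.6% and 73.9%. In the other large peaks the shares were 68.16% and 68.15% for OSKM B12 and 21.1% and 22.2% for OSKM. For MEF B12 they were 68.8% and 70.3% there, so the same order was seen outside the kept domains for OSKM against both B12 libraries.

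The domains kept their extent in OSKM but not their level. Levels are given as scaled pileup, the authors' mean number of overlapping fragments over a peak, per 1000000 tags of the library and averaged over the bases of the domain that lay in peaks. The median over kept domains was 0.781 in MEF (interquartile range 0.683 to 0.869) and 0.878 in MEF B12 (0.762 to 0.992). It was 0.551 in OSKM (0.504 to 0.605) and reached 0.941 in OSKM B12 (0.806 to 1.07). OSKM was thus the lowest library and OSKM B12 the highest, and the interquartile ranges of OSKM and of the other 3 libraries did not overlap. These ranges are spreads over domains within 1 library each, not over replicates. In the other large MEF peaks the medians were 0.591, 0.664, 0.470 and 0.676 in the same order, over the bases called in each library. There too the interquartile range of OSKM (0.434 to 0.509) lay below those of MEF (from 0.527), MEF B12 (from 0.589) and OSKM B12 (from 0.595).

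**Figure D2:**
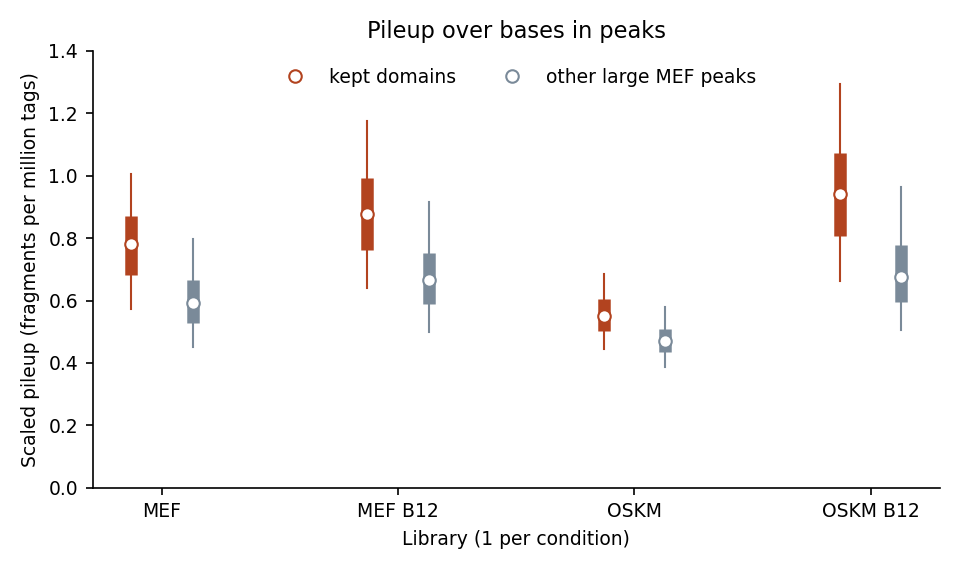
Scaled pileup (vertical axis, fragments per 1000000 tags) of the 1368 kept domains (red) and the 11503 other large MEF peaks (grey) in the 4 H3K36me3 libraries. Circles are medians, thick bars the interquartile range and thin lines the range from percentile 5 to 95 over domains, not over replicates. Kept domains are at 0.551 in OSKM and at 0.941 in OSKM B12.

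The ratio of OSKM to MEF had a median of 0.712 over kept domains. It was below 1 in 1365 of 1368 (99.8%), beside 12425 of 12714 large MEF peaks with an OSKM peak (97.7%). The level fell by at least 1.5 times in 267 kept domains (19.5%), beside 5.97% of all large MEF peaks with an OSKM peak. MEF and OSKM are the libraries that chose the members. The median over the other large peaks was 0.785, but that value takes only the bases still called in OSKM. With bases outside peaks counted as 0, the order turned, and the median was 0.673 in kept domains and 0.499 in the others. Which of the 2 sets lost more therefore depended on how uncalled bases were counted.

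OSKM B12 stood above OSKM in all 1368 kept domains over called bases. This was general: OSKM B12 was below OSKM in 45 of 12714 large MEF peaks with an OSKM peak (0.354%). The median ratio over kept domains was 1.70. It was at least 1.5 in 1178 of them (86.1%), beside 46.9% of all large MEF peaks with an OSKM peak, with OSKM again among the libraries that chose the members. The median over the other large peaks was 1.46, again over called bases only. With uncalled bases counted as 0, the order turned, and the median was 1.79 in kept domains and 2.18 in the others. Which set rose more therefore depended on how uncalled bases were counted. Kept domains with OSKM B12 below OSKM appeared only on other scales: 1 with uncalled bases counted as 0, and 2 by fold enrichment over input. MEF B12 against MEF was a smaller difference, with a median of 1.14 and a ratio of at least 1.5 in 3 domains (0.219%), beside 0.528% of all large MEF peaks. Without scaling to tags, the MEF B12 to MEF ratio had a median of 1.01, so most of its size rests on the scaling, while fold enrichment over input gave 1.11. The 2 libraries that took no part in the choice gave an OSKM B12 to MEF B12 ratio of 1.07 (median) in kept domains and 1.02 in the others.

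The fold enrichment over input, which the authors computed within each library, gave the same order. Its median over kept domains was 4.53 in MEF and 5.04 in MEF B12, and 3.34 in OSKM and 5.16 in OSKM B12. In OSKM, 466 kept domains (34.1%) had a mean −log10 q of at least 5, compared with 1288 (94.2%) in MEF. Over all large MEF peaks the shares were 7.21% in OSKM and 58.4% in MEF, so the lower share in OSKM was not particular to kept domains. Whether the lower OSKM level reflects the mark in the cells or the yield of 1 immunoprecipitation cannot be told apart with 1 library per condition.

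How strong a peak was in MEF went with whether it was kept. After the 12871 large peaks were split into 10 bins of equal size by MEF scaled pileup, the share kept rose in every step, from 7 of 1284 (0.545%) in the lowest bin to 649 of 1289 (50.4%, 47.6 to 53.1) in the highest. The highest bin, at 0.788 and above, held 649 of the 1368 kept domains. The share also rose with the length of the MEF peak, from 5.84% under 4000 bases to 25.8% at 20000 bases and more. Kept domains had a median length of 7935 bases and the other large peaks one of 5531.

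**Figure D3:**
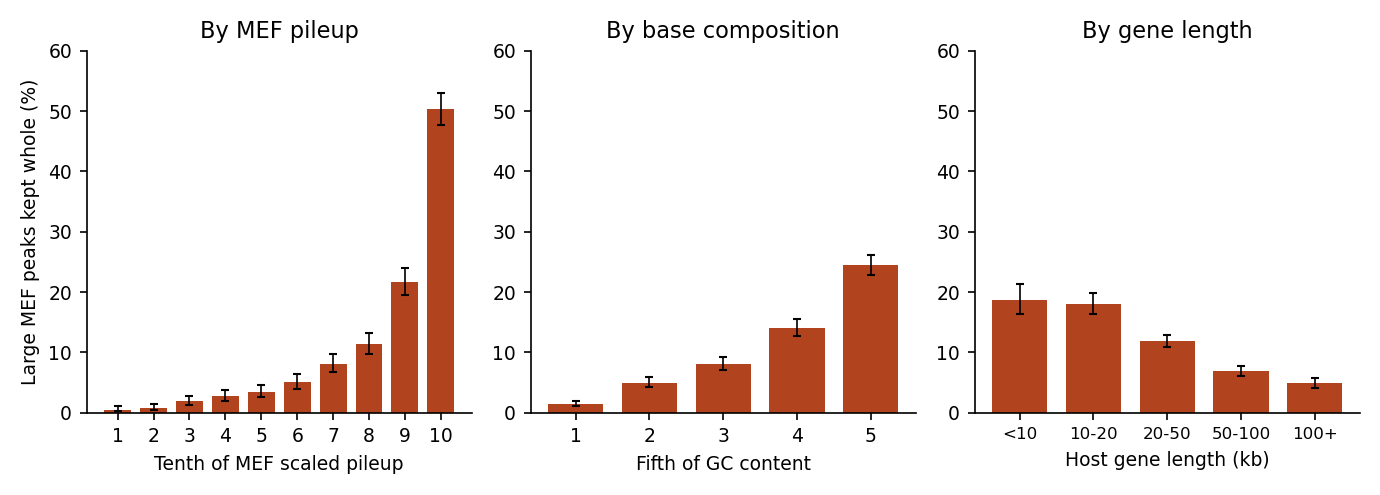
Percentage of large MEF peaks kept whole in OSKM (vertical axis) by bin of MEF scaled pileup (left, 10 bins), of GC content (middle, 5 bins) and by length of the host gene in kb (right), with 95% Wilson intervals. The share climbs from 0.545% to 50.4% with pileup and from 1.48% to 24.4% with GC content, and is lowest, at 4.94%, in genes of 100 kb and longer.

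Inside a bin of MEF pileup, several contrasts between kept and other peaks shrank. In the highest bin, the OSKM to MEF ratio had a median of 0.686 in kept domains and of 0.691 in the 640 others, and in the lowest it was 0.908 and 0.914. The bins and the ratio share the MEF value, and OSKM was averaged over called bases only, so nothing is read from the fall of the ratio across bins. Over called bases, the OSKM B12 to OSKM ratio stayed apart inside the bins, with 1.79 and 1.71 in the highest and 1.69 and 1.62 in the bin below it. With uncalled bases counted as 0 and without bins, the order was the opposite, with medians of 1.79 in kept domains and 2.18 in the others. That count was not split by bin, so nothing is read from the contrast that stayed. OSKM enters both the rule and this ratio.

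Nearly all kept domains lay in protein-coding genes (1356 of 1368, 99.1%), and this held for the other large peaks too (98.7%). The host gene is the one sharing the most bases with the domain. The transcription end site (TES) of the host lay inside 669 kept domains (49.3%, 46.7 to 52.0) and inside 25.3% of the others. The transcription start site (TSS) lay inside 6 (0.442%). The centre of a kept domain lay at 71.5% of the way from TSS to TES (median) and that of another large peak at 70.6%, so both sets sat in the 3′ part of the gene.

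Kept domains took up more of a shorter gene. Their host genes had a median length of 25929 bases, compared with 46459 for the other large peaks, and the domain held at least 50% of the gene body in 517 cases (38.1%), compared with 13.4%. Its 5′ edge lay within 5 kb downstream of the TSS in 474 (35.0% against 17.6%) and in an intron in 1216 (89.7%), which was intron 1 in 248. Where the TES was inside, the domain ran a median of 1426 bases past it. A kept domain touched 6 exons of its host (median, against 3), and exons made up 19.8% of its bases within the gene (against 9.67%).

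The share kept by gene length fell from 18.7% in genes under 10 kb and 18.1% at 10 to 20 kb to 11.9% at 20 to 50 kb, 6.90% at 50 to 100 kb and 4.94% at 100 kb and more. Within bins of MEF pileup, the share kept was not steadily higher with the TES. In the highest bin of MEF pileup, 49.7% of the peaks that held the TES were kept (46.3 to 53.1) and 52.4% of those that did not (47.7 to 57.1). In bin 5 the shares were 5.65% with it and 3.06% without, and in bin 8 they were 9.18% and 12.7%. Among peaks of like length the TES went with a larger share in each of 5 steps: at 6000 to 9999 bases, 17.9% of peaks with the TES were kept and 8.06% of those without. Gene length still differed in the middle bins of pileup (median 30896 and 44065 bases in bin 7) but not in the highest (22656 and 21866).

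**Figure D4:**
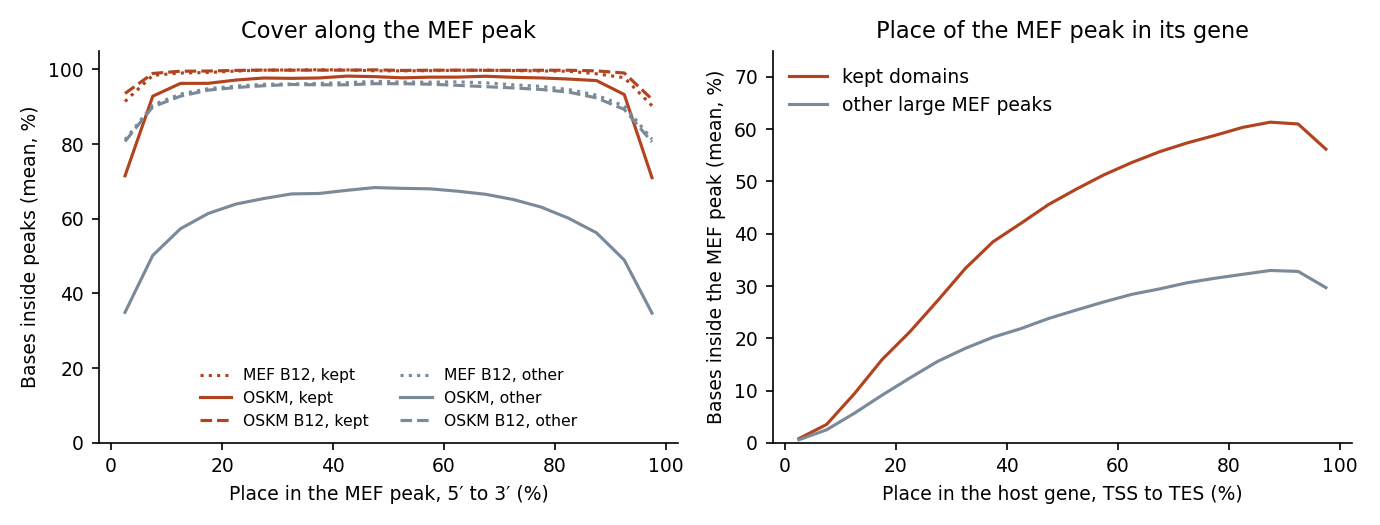
Left, mean percentage of bases inside peaks (vertical axis) along the MEF peak from 5′ to 3′ (horizontal axis, 20 steps) for MEF B12 (dotted), OSKM (solid) and OSKM B12 (dashed), in kept domains (red) and other large MEF peaks (grey). Right, mean percentage of bases inside the MEF peak along the host gene from TSS to TES. OSKM cover of kept domains is 71.5% in the first step and 71.0% in the last, and about 98% in the middle. Along the gene, kept domains fill 0.802% of the first step and 56.2% of the last.

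The cover of kept domains in OSKM was lowest at both edges. It was 71.5% over the first step of 20 and 71.0% over the last, but 98.1% over step 10. OSKM B12 covered 93.6% and 92.0% of the same edge steps. The other large peaks fell from 68.4% at step 10 to 34.9% and 34.7% at the edges in OSKM, so the edges were the thinnest part in both sets and at both ends.

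Some kept domains joined neighbouring genes. Of the kept domains, 278 (20.3%) touched at least 2 protein-coding genes, against 9.51% of the others, and 216 (15.9%) held at least 2 TESs, against 5.80%. In 244 (17.99%) the touched genes lay on both strands. Pileup carries no strand, so the mark of overlapping or neighbouring genes could not be told apart in these domains.

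The kept domains also differed in base composition. Their median GC content was 49.6%, compared with 44.6% in the other large peaks, and the share kept rose from 1.48% in the lowest of 5 GC bins to 24.4% in the highest. Repeat-masked sequence made up 16.5% of a kept domain and 20.5% of the others (medians). Inside the highest bin of MEF pileup, GC stayed apart (50.3% and 48.0%), as did repeats (16.3% and 17.8%). In bin 5 the values were 49.5% and 44.0% for GC and 15.6% and 20.9% for repeats. Of the bases in the gaps between OSKM peaks inside kept domains, 35.2% were repeat-masked, compared with 17.5% of the bases inside the OSKM peaks. In the other large peaks, 28.6% and 19.5% were. The part of mappability or of base composition in the calls was not tested.

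Among chromosomes 1 to 19, the share kept was lowest on chromosome 13 (25 of 467, 5.35%, 3.65 to 7.78) and highest on chromosome 19 (59 of 403, 14.6%, 11.5 to 18.4). The intervals of these 2 do not overlap, while those of chromosomes 7, 11, 15, 17 and 19, which had the highest shares, do. Chromosomes 13 and 19 were picked as the extremes, so the separation of their intervals is not a test.

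The longest kept domain covered 96217 bases of Ubr4 (ENSMUSG00000066036, chr4:139396138-139492354), which encodes a large ubiquitin ligase of the N-degron pathway. Its scaled pileup was 1.02 in MEF and 1.21 in MEF B12, and 0.687 in OSKM and 1.29 in OSKM B12. The lowest of the 4 was OSKM, which used 4 peaks to cover 98.1% of the domain, where each of the other libraries had 1. The OSKM to MEF ratio was 0.674 (95% counting interval 0.654 to 0.694) and the OSKM B12 to OSKM ratio 1.88 (1.82 to 1.93). The domain reached 22591 bases past the end of the transcript used for Ubr4, which is the longest by span but ends before other annotated transcripts of the gene.

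Col5a1 (ENSMUSG00000026837, chr2:27946476-28041038), the gene of a fibrillar collagen chain, held the next, of 94563 bases. Its scaled pileup was 0.950 in MEF and 1.07 in MEF B12, and 0.628 in OSKM and 1.21 in OSKM B12. It ran from intron 4 past the TES, and OSKM covered 95.3% of it in 8 peaks. The OSKM to MEF ratio was 0.661 (0.641 to 0.682).

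Rnf213 (ENSMUSG00000070327, chr11:119402341-119489414), which encodes a giant ubiquitin ligase with ATPase domains, was the one of the 6 longest that OSKM covered with 1 peak. That peak took in 99.5% of 87074 bases, from intron 1 past exon 67. The scaled pileup was 1.22 in MEF and 1.46 in MEF B12, and 0.742 in OSKM and 1.498 in OSKM B12. The unbroken peak thus had an OSKM to MEF ratio of 0.608 (0.591 to 0.626), lower than in the other 5 of the 6 longest.

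Fn1 (ENSMUSG00000026193, chr1:71583675-71650702), the gene of fibronectin, was the opposite case in its pieces. OSKM covered 91.3% of its 67028 bases with 12 peaks, the most of any kept domain, and the largest gap between them was 859 bases. The scaled pileup was 0.878 in MEF and 0.994 in MEF B12, and 0.576 in OSKM and 1.04 in OSKM B12. The OSKM to MEF ratio was 0.656 (0.631 to 0.682), and in OSKM B12 1 peak again covered 99.5%.

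**Figure D5:**
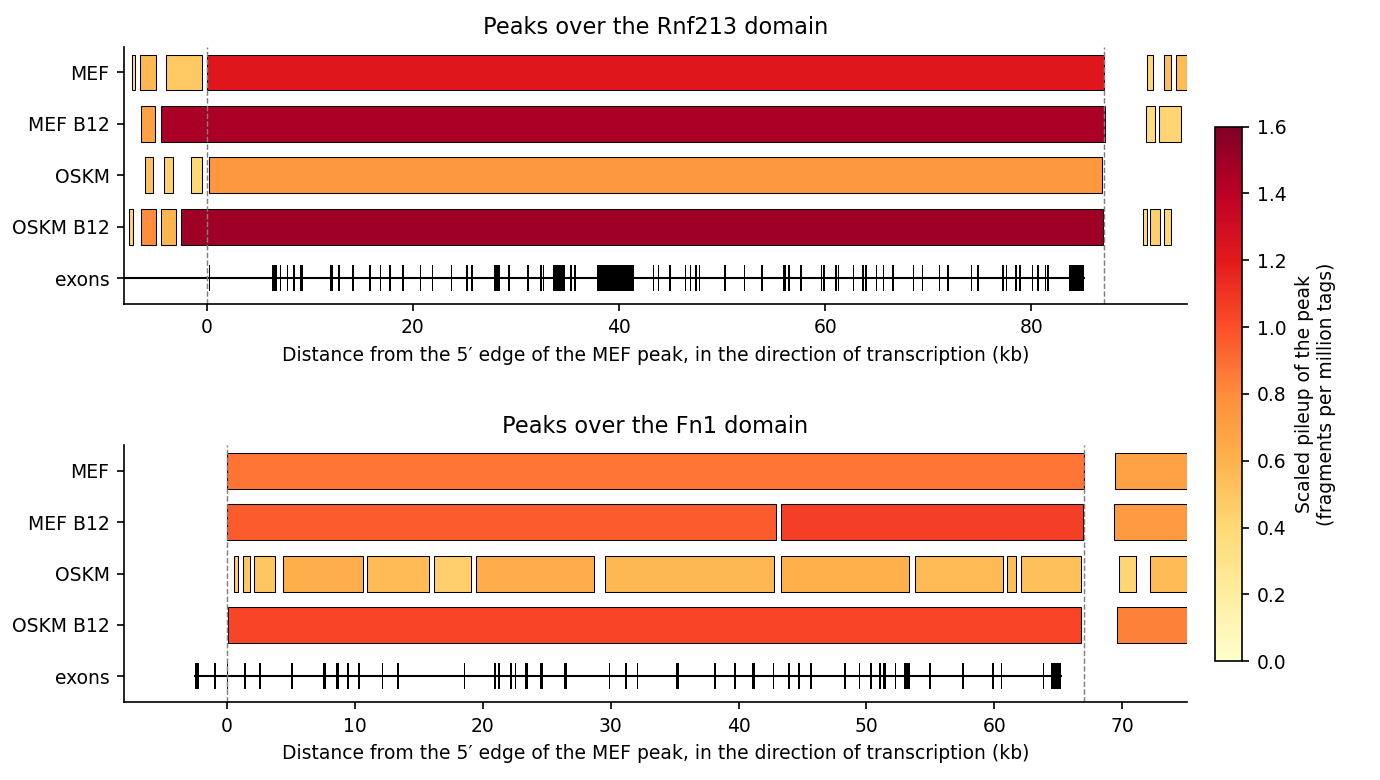
Peaks of the 4 libraries over the Rnf213 domain (top, 87074 bases) and the Fn1 domain (bottom, 67028 bases), by distance in kb from the 5′ edge of the MEF peak in the direction of transcription. Boxes are peaks coloured by their scaled pileup, black bars are exons of the longest transcript, and dashed lines are the edges of the MEF peak. OSKM has 1 peak over Rnf213 and 12 over Fn1.

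The other 2 of the 6 longest were Trrap (85906 bases, ENSMUSG00000045482, chr5:144775651-144861556), a scaffold of histone acetyltransferase complexes, and Dync1h1 (59441 bases, ENSMUSG00000018707, chr12:110611707-110671147), the heavy chain of cytoplasmic dynein. Trrap stood at 0.927, 1.07, 0.625 and 1.16 (scaled pileup in MEF, MEF B12, OSKM and OSKM B12). Dync1h1 stood at 1.18, 1.42, 0.770 and 1.497 in the same order. In both, OSKM was the lowest and OSKM B12 the highest library, with OSKM to MEF ratios of 0.674 and 0.653.

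The kept domains with the highest MEF pileup lay in Hjurp, Plec, Fasn, Lrp1 and Son. Hjurp, which encodes the chaperone that loads the centromeric histone, had a scaled pileup of 3.41 in MEF and 3.89 in MEF B12, and 2.35 in OSKM and 3.51 in OSKM B12. This was the highest of all kept domains, but its fold enrichment over input was 4.56 in MEF, close to the median of kept domains (4.53), so the input was high there as well. Plec, the gene of the cytoskeletal linker plectin, had 1.66, 1.84, 1.07 and 2.10 (scaled pileup, same order) and a MEF fold enrichment of 10.5, the highest among kept domains.

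Fasn, which encodes fatty acid synthase, had 1.36 in MEF and 1.67 in MEF B12, and 0.938 in OSKM and 1.97 in OSKM B12. Lrp1, an endocytic receptor, had 1.25, 1.41, 0.791 and 1.58. In these 4 genes OSKM was the lowest library, and OSKM B12 exceeded MEF. Son, which encodes a splicing cofactor, differed: its 6525-base domain, with a 5′ edge in intron 2 and a 3′ edge in intron 3, had 1.23 in MEF and 1.01 in MEF B12, and 0.703 in OSKM and 1.10 in OSKM B12, so that MEF was the highest.

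The lowest OSKM to MEF ratios were 0.525 (0.440 to 0.626) in Rpl26, 0.542 (0.447 to 0.656) in Ckap5, 0.558 (0.471 to 0.660) in Rpl19, 0.561 (0.502 to 0.627) in Kdelr2 and 0.566 (0.485 to 0.660) in Slc3a2. Rpl26 and Rpl19 encode proteins of the large ribosomal subunit, Ckap5 a microtubule polymerase, Kdelr2 a retrieval receptor of the endoplasmic reticulum and Slc3a2 the heavy chain of amino acid transporters. Rpl26 had a scaled pileup of 0.910 in MEF and 0.931 in MEF B12, and 0.478 in OSKM and 0.805 in OSKM B12. Its domain spanned 3673 bases and held the TES. The counting intervals of these 5 overlap, so their order is not resolved.

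The highest ratios were 1.05 (0.8604 to 1.28) in 2900026A02Rik, 1.01 (0.826 to 1.24) in Rgs12, 1.01 (0.833 to 1.22) in Pycrl, 0.949 (0.771 to 1.17) in Pltp and 0.948 (0.819 to 1.10) in Usp20. These 5 were chosen for this ratio, and all 5 counting intervals include 1. Their MEF scaled pileup was between 0.416 and 0.572, below the kept median of 0.781. Pycrl encodes an enzyme of proline synthesis, Rgs12 a regulator of G-protein signalling, Pltp a phospholipid transfer protein and Usp20 a deubiquitinase. 2900026A02Rik, at 0.437 in OSKM and 0.416 in MEF, carries only a clone name.

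Of the 6617 protein-coding genes that hosted a large MEF peak, 1250 (18.9%) hosted a kept domain. The gene lists that follow were drawn up with earlier results of these data known, and their counts are set beside this 18.9% as a description.

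Extracellular matrix genes of fibroblasts had a kept domain in 12 of 33 genes with a large MEF peak. Besides Col5a1 and Fn1, they were Col1a1, Col6a1, Col6a3, Fbn1, Hspg2, Lama4, Loxl1, Mmp2, Sparc and Thbs1, which encode collagens, fibrillin, perlecan, a laminin chain, a cross-linking enzyme, a protease and matricellular proteins. Their 14 domains had an OSKM to MEF ratio between 0.619 and 0.754 (median 0.686) and an OSKM B12 to OSKM ratio between 1.48 and 2.02. Hspg2 had 59251 bases and a scaled pileup of 0.981 in MEF and 1.09 in MEF B12, and 0.678 in OSKM and 1.25 in OSKM B12.

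Genes of the actin cytoskeleton had one in 8 of 26. Their 9 domains were strong in MEF, with a median of 1.08, and their OSKM to MEF ratio ran from 0.579 to 0.706. Myh9, the non-muscle myosin heavy chain, had 1.16 in MEF and 1.37 in MEF B12, and 0.741 in OSKM and 1.55 in OSKM B12. Tln1, the integrin adaptor talin, had 1.21, 1.38, 0.778 and 1.57. The domain of filamin C (Flnc) ended 27 bases before the TES in exon 48. Most genes of both lists with a large MEF peak had none kept whole.

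In gene expression machinery, 18 of 44 splicing factor genes had a kept domain, 9 of 26 translation factor genes, 6 of 18 elongation factor genes and 12 of 47 genes of cytosolic ribosomal proteins. Snrnp200, an RNA helicase of the spliceosome, had a domain of 36305 bases with 0.873 in MEF and 1.04 in MEF B12, and 0.603 in OSKM and 1.04 in OSKM B12. Polr2a, the largest subunit of RNA polymerase II, had 1.02, 1.27, 0.661 and 1.31 over 15633 bases, in 1 OSKM peak. Eif4g1, the scaffold of cap-dependent translation initiation, had 1.03, 1.19, 0.679 and 1.24. The 18 splicing factor domains had a median OSKM to MEF ratio of 0.676, the 9 translation factor domains one of 0.658 and the 12 ribosomal protein domains one of 0.670.

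The ribosomal protein domains were short and most held the gene end. The TES was inside 11 of 12, and the longest, in Rpl22, had 8616 bases. Rpl3 had a scaled pileup of 0.936 in MEF and 1.19 in MEF B12, and 0.608 in OSKM and 1.23 in OSKM B12. Ribosomal protein genes have processed pseudogenes, and whether reads of close copies were lost or gained here was not tested.

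Among housekeeping lists, 4 of 21 chaperone genes, 4 of 10 glycolysis genes and 4 of 20 aminoacyl-tRNA synthetase genes had a kept domain. Pkm, the gene of pyruvate kinase, had 0.847 in MEF and 1.03 in MEF B12, and 0.580 in OSKM and 1.08 in OSKM B12. Ldha, lactate dehydrogenase A, had 0.839, 1.00, 0.595 and 1.02. Iars, an isoleucyl-tRNA synthetase, held 34531 bases at 0.765, 0.876, 0.538 and 0.931. In all 3, OSKM was lowest and OSKM B12 above MEF.

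Enzymes that write or erase H3K36 methylation had a kept domain in 4 of 14 genes: Kdm4a, Kdm4b and Kdm2a, which encode demethylases, and Nsd3, a methyltransferase. Kdm4a had 37679 bases with 0.921 in MEF and 1.05 in MEF B12, and 0.616 in OSKM and 1.18 in OSKM B12. Setd2 was not among the hosts of kept domains, and neither were most genes of this list. Chromatin remodelers had one in 10 of 27, of which Chd2 (48752 bases) lay at 90.04% in 11 OSKM peaks, and Chd4 (32097 bases) had 0.948, 1.08, 0.630 and 1.17.

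From the list for vitamin B12 and the methionine cycle, Mmab, which makes adenosylcobalamin, had a kept domain of 4815 bases. Its scaled pileup was 0.734 in MEF and 0.754 in MEF B12, and 0.539 in OSKM and 0.868 in OSKM B12. The domain held 37.0% of the gene body.

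Among transcription factors, the hosts were 2 of 17 mesenchymal genes (Nfic and Prrx2) and 26 of 195 Zfp zinc finger genes (13.3%), beside 18.9% of all genes with a large MEF peak. Tests of these differences were not made. Of the reprogramming and pluripotency genes, 5 had a large MEF peak and 2 a kept domain, Tet3, a 5-methylcytosine dioxygenase, and Wdr5, a subunit of H3K4 methyltransferase complexes. Tet3 had 0.796 in MEF and 0.913 in MEF B12, and 0.595 in OSKM and 0.985 in OSKM B12. Zfp335, the longest zinc finger domain with 26676 bases, had 0.949, 1.13, 0.665 and 1.30.

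Most host genes (1159 of 1250) had 1 kept domain. The gene model with the most, 8, was Gm20388, whose annotated span of 4434882 bases on chromosome 8 runs across other genes. Each of its 8 domains also touched a shorter gene, among them Gins2, Cox4i1, Mvd, Piezo1, Ankrd11, Vps9d1, Tcf25 and Gas8. Vps35l, a subunit of an endosomal retrieval complex, had 4, with MEF scaled pileup from 0.579 to 0.821 and OSKM from 0.449 to 0.539. Gtf3c1, Dnajc13 and Sh3pxd2a had 3 each, and the 3 of Gtf3c1, a subunit of the RNA polymerase III factor TFIIIC, stood at 0.606 to 0.635 in OSKM.

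Of the 12 kept domains outside the longest coding transcripts, 6 lay in the wider span of a coding gene (Mia3, Srpk2, Tjp1, Pcmt1, Mgat4b and Rangap1) and 6 in noncoding ones. Mirg, an imprinted microRNA host transcript on chromosome 12, held 2 of these. The longer had 35196 bases and a scaled pileup of 0.721 in MEF and 0.764 in MEF B12, and 0.491 in OSKM and 0.845 in OSKM B12. Its OSKM cover of 91.1% came from 8 peaks.

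Kept domains and other large peaks often shared a gene. Of the 1250 host genes, 584 (46.7%) also held a large MEF peak that was not kept. Outside the kept domains, 59.3% of the MEF peak bases in these genes lay in OSKM peaks, beside 55.0% in genes with other large peaks only. Over the whole gene body, the median cover by peaks in the host genes was 68.8% for MEF, 72.3% for MEF B12, 59.3% for OSKM and 72.8% for OSKM B12. In genes with other large peaks only, the medians were 55.7%, 58.7%, 33.1% and 59.2%.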

How the data were processed

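ChIP–seq of H3K36me3 was performed on i4F MEFs at 72 h, with 1 H3K36me3 library and 1 input for each of 4 conditions, grouped by the labels. The submitters' processing notes name mm10, Bowtie 0.12.9 and MACS2 2.2.6, and per the file headers broad peaks were called in each library against an input. The deposited pileup is a signal, the mean fragment coverage of a peak, and was divided here by the tags after filtering and multiplied by 1000000. The authors' fold enrichment is a ratio of pileup to local input, and the deposited significance is given as −log10 p and −log10 q. A peak has 1 mean, which was given to all of its bases, and nothing between peaks was analysed here. The authors ran Bowtie with the options n 2 and m 1. In Bowtie, m 1 drops reads with more than 1 alignment, while the methods describe it as keeping such reads at 1 position.

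Cover was computed base by base with Python 3.11.15 and numpy 2.4.6, and figures were drawn with matplotlib 3.10.9. The arithmetic was tested on simulated data. Genes came from GENCODE M21 (longest protein-coding transcript) and bases and repeat masking from GRCm38, and all peaks ended inside its chromosome lengths. Shares carry 95% Wilson intervals, and ratios of named domains carry intervals from estimated tags (pileup times bases over fragment length). Both cover counting error only, and depth, 29046913 tags or more, sets which enrichment could be called. The genes named were hosts of the 6 longest domains, the 5 highest in MEF pileup, the 5 highest and the 5 lowest in OSKM to MEF ratio, the 5 genes with the most domains, up to 3 hosts with the longest domains per list, and 3 domains on each side of the limit, and other members of a list are named where its count is given. The members and lists were chosen with earlier results of these data known. The alternatives tried changed the cover, length, significance, merging, chromosomes, scaling and gene models. A result of the list for vitamin B12 and the methionine cycle is not reported here.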

Additional observations from a re-analysis of the deposited data

Results flagged for a closer look

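Chromosome X was outside the choice of members. By the same rule, 5 of its 224 large MEF peaks were kept whole (2.23%, 0.957 to 5.12), compared with 10.6% on chromosomes 1 to 19. These shares were not compared at like MEF pileup or like copy number of the chromosome. The kept domains of chromosome X lay in Flna, Huwe1, Cdk16, Atp6ap1 and Pja1. In all but Flna, the MEF scaled pileup was between 0.450 and 0.538, below the median of 0.781 of the kept domains on chromosomes 1 to 19. The Flna domain of 14026 bases, in the gene of filamin A, had a scaled pileup of 0.758 in MEF and 0.964 in MEF B12, and 0.478 in OSKM and 1.05 in OSKM B12. On chromosome Y, 0 of 8 were kept, with an upper 95% Wilson limit of 32.4%.

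Vitamin B12 went with a lower level in MEF and a higher one in OSKM in 100 of 1368 kept domains (7.31%), and in 7.5% of the other large MEF peaks. The difference was not tested. These 100 domains had a median length of 4761 bases, compared with 8328 in the other 1268. By fold enrichment, MEF B12 was below MEF in 200 kept domains (14.6%), and with uncalled bases counted as 0 in 131 (9.58%). The count also depends on the scaling to tags, without which the median MEF B12 to MEF ratio over kept domains was 1.01 rather than 1.14. The 100 domains included Son, with a MEF B12 to MEF ratio of 0.822 (0.743 to 0.909), Ckap5 with 0.854 (0.717 to 1.02) and Slc3a2 with 0.942 (0.821 to 1.08). In these 3, OSKM B12 to OSKM was 1.57, 1.59 and 1.66. All 3 were named for a high MEF level or a low OSKM to MEF ratio, and MEF is the denominator of the first ratio.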

How the results depend on the processing

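The number of kept domains, 1368 (10.6% of large MEF peaks), depended on the rule. It was 3629 (28.2%) at 80% cover, 536 (4.16%) at 95%, 788 (6.12%) when 1 OSKM peak alone had to cover 90% of the domain, whatever other peaks touched it, 4295 (33.4%) after OSKM peaks up to 1 kb apart were merged, and 318 (4.23%) where peaks of both lists needed −log10 q 5 or more. A length of 2 kb gave 9.04% kept and one of 5 kb 13.5%. The share in a coding gene was 99.6% at 95% cover, 99.5% at 5 kb, 99.7% with the strict q and 100% with every biotype. The share that held a gene end moved from 49.3% to 45.4% at 80% cover, 45.3% at 95%, 43.1% at 2 kb, 55.5% at 5 kb, 37.4% after merging, 70.7% with the strict q and 46.3% with every biotype. Cover of at least 90% in OSKM B12 moved from 99.1% to 97.1% at 80% cover and at 2 kb, 99.6% at 5 kb, 94.9% after merging and 100% with the strict q, and 58.3% were covered to the last base. Without scaling to tags, OSKM B12 to OSKM was 1.51 and MEF B12 to MEF 1.01 (medians). Of the 88 alternative values, 57 stayed within the range set around the main value, or within 1.5 times for the count. For the ratios, this range was the counting interval of 1 domain (median over domains), not an interval of the median itself. Only the median ratios have a direction, and none of them crossed 1. The counts, shares and place in the gene have none. Leaving out hosts over 1 Mb, chosen after seeing the data, gave 49.96% with a gene end. No paired analysis was possible because every condition was sequenced in a single library. No library could be left out, so the lower level in OSKM rests on 1 immunoprecipitation.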
